A study of Homo sapiens with 6 samples.

Results

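The 10 genes of the contractile cytoskeleton described in HGC27 gastric cancer cells were the actins *ACTA2* and *ACTG2*, the tropomyosins *TPM1* and *TPM2*, the actin filament binding proteins *TAGLN*, *CNN1* and *CALD1*, the myosin genes *MYL9* and *MYLK*, and the adhesion plaque gene *VCL*. They are 10 of the 39739 genes in each expression table and were found there by their symbols. The 10 genes were chosen on earlier results of the same comparison of the same libraries, so their differences between the groups are a description. No p-value is given for them, and where they are counted as past the threshold of the fit over all genes, the choice of the genes largely fixed that count. Every one of the 10 genes was listed, and 9 of them passed the filter on low values.

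Each group, HGC27-FN1 3′-UTR and HGC27-control, was sequenced as 3 bulk mRNA libraries of HGC27, a human cell line established from gastric cancer. In HGC27-FN1 3′-UTR cells, the 3′-untranslated region of *FN1*, the fibronectin gene, was stably overexpressed after lentiviral infection and puromycin selection, while the control cells are labelled only as control. Nothing in the labels says that the replicates came from separate cultures or infections, so the p-values below measure the spread between these libraries, which may be technical. The promoter that drives the insert and the number of infected clones are not given in the sources used here.

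Serum response factor (SRF) is a transcription factor that binds the CArG box, a pair of C bases and a pair of G bases around a core of A and T bases. Its cofactors MRTF-A and MRTF-B, listed here as *MKL1* and *MKL2*, are held back by monomeric actin and reach the nucleus when actin polymerises. Genes of smooth muscle and myofibroblast contraction, among them actins, calponin, transgelin and vinculin, are textbook targets of this system.

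The reads assigned to genes numbered between 16357085 and 37037532 per library, and all values fell on whole reads. Of 23299 genes tested by limma, HGC27-FN1 3′-UTR cells had 1310 called higher and 1715 called lower, at an adjusted p under 0.05. With median-ratio scaling the split turned to 1696 higher and 1330 lower, and the median log2 fold change of all genes moved from -0.04 to -0.003. *FN1* itself was at 0.777, 0.745 and 0.819 RPKM (reads per kilobase of merged exons per 1000000 assigned reads) in HGC27-FN1 3′-UTR cells and at 0.543, 0.474 and 0.532 RPKM in HGC27-control cells, a log2 fold change of 0.52 (limma, adjusted p = 0.0292). It did not pass in any of the 6 fits that left out 1 library, where the adjusted p ran from 0.0614 to 0.0982. These values are for the whole gene, 17315 bases of merged exons, while only the 3′-untranslated region was overexpressed. They do not measure the level of the insert alone. Control replicates 1 and 2 stood apart from the other 4 libraries in the genes of cardiac myosin. *MYH7*, the slow cardiac myosin heavy chain, was at 16.2, 10.6 and 1.11 RPKM in the 3 control libraries and between 1.06 and 1.23 RPKM in HGC27-FN1 3′-UTR cells, and its near-identical neighbour *MYH6* was at 17.4, 9.84 and 1.03 RPKM in the control libraries. The cardiac actin *ACTC1* shared this pattern at a low level, at 0.212, 0.154 and 0.0116 RPKM in the control libraries. In HGC27-FN1 3′-UTR cells it was at most 0.0264 RPKM. The striated muscle markers *TNNT2* and *TTN* did not share it. *TNNT2*, cardiac troponin T, was at 0.629, 0.474 and 0.0558 RPKM in the control libraries. In HGC27-FN1 3′-UTR cells *TNNT2* was between 0.396 and 0.468 RPKM. *TTN*, titin, was between 0.0955 and 0.116 RPKM in all 6 libraries.

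Promoter windows in the RefSeq table of build GRCh38.p14, 250 bases before to 50 bases after each start, were available for 8 of the 10 genes in 13 windows, and *TAGLN* and *MYL9* had none there. The sequences below carry the CArG boxes of these windows, shown because this is the element that SRF reads. Capitals mark the box, on the strand of the gene:
ACTG2 first box, chr2:73892888-73892917, plus strand: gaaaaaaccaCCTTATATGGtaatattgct
ACTG2 second box, chr2:73892925-73892954, plus strand: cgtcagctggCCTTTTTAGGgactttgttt
MYLK box, chr3:123620623-123620652, minus strand: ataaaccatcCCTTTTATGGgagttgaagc
ACTA2 first near-box, chr10:88952875-88952904, minus strand: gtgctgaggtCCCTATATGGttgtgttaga
ACTA2 second near-box, chr10:88952825-88952854, minus strand: tgtctttgctCCTTGTTTGGgaagcaagtg
CALD1 near-box, chr7:134711463-134711492, plus strand: ccagaggtccCCTAAAGAGGaatacattct

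The *ACTG2* boxes began 110 and 73 bases before the start, and the *MYLK* box 94 bases before it. These were the exact matches, in 2 of the 13 windows, against 1.29% of all 35116 windows in the table. A near-box has 1 base in the core that is neither A nor T. With near-boxes counted too, 4 of the 13 windows held a match, against 8.13% of all windows. The *ACTA2* near-boxes began 121 and 71 bases before the inner of its 2 annotated starts. The *CALD1* near-box lay 26 bases before a start upstream of the span that the deposited tables give for *CALD1*. The windows of *TPM1*, *TPM2*, *CNN1* and *VCL* did not hold these letters, which says nothing of sites elsewhere.

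Other promoter motifs were searched on both strands in the same windows. The MCAT motif (CATTCC), read by TEAD factors, was in 5 of 13 windows, those of *ACTA2*, *MYLK* and *VCL* and a pair of *CALD1* windows, against 14.0% of all windows. The TATA motif (TATAAA) was in 3 windows, those of *ACTG2*, *MYLK* and *CALD1*, against 11.5% of all windows, with a pair of overlapping matches in *MYLK*. None of the motifs overlapped a CArG box. A match is a stretch of letters and not a measured binding site.

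**Figure D1:**
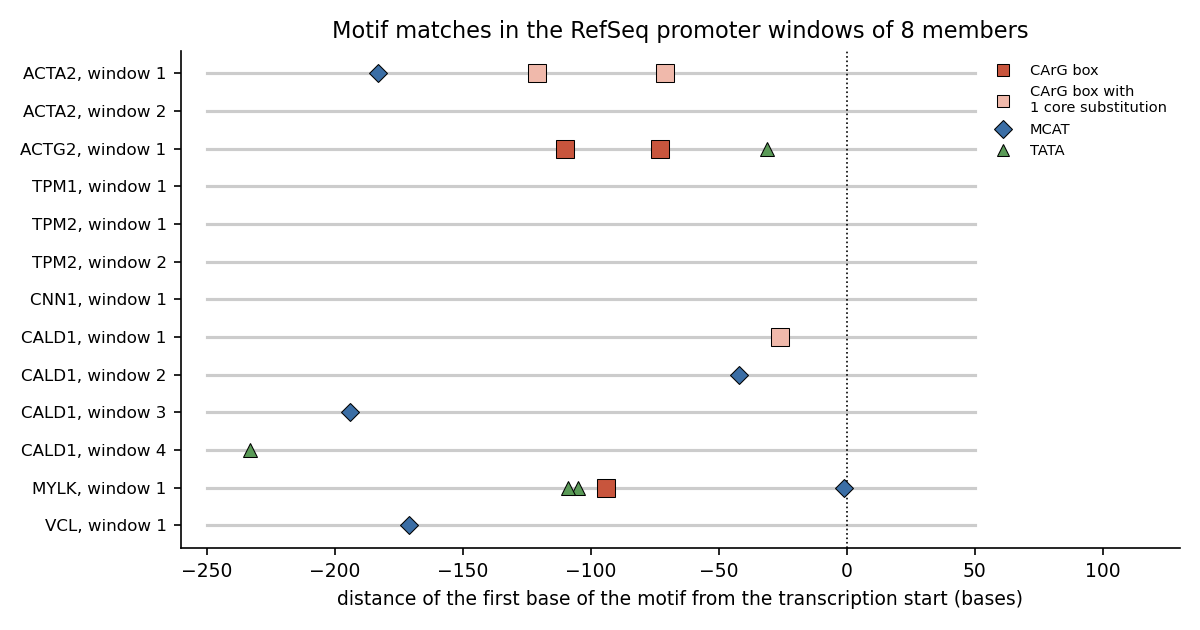
Motif matches in the 13 RefSeq promoter windows of 8 genes, with the distance of the first base of each motif from the transcription start in bases on the x axis and 1 line per window. Exact CArG boxes stand in the windows of *ACTG2* and *MYLK*, and near-boxes in those of *ACTA2* and *CALD1*.

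Among the 9 genes that passed the filter, 7 were called higher in HGC27-FN1 3′-UTR cells and none lower by limma, beside 5.62% of all tested genes called higher and 7.36% called lower. Under the DEG criteria (log2 fold change over 1, unadjusted P under 0.05), 4 of them (*ACTA2*, *TAGLN*, *CNN1* and *CALD1*) were upregulated, beside 1.65% of all tested genes. In 7 genes every HGC27-FN1 3′-UTR library was above every control library, beside 14.3% of all tested genes, and in 1 gene every one was below, beside 21.7%. The median log2 fold change of the 9 genes was 0.77, beside -0.04 over all tested genes. Since the genes were chosen on this comparison, nothing is read from these counts. Of the 9 genes, 1 had an unadjusted p under 0.05 in the lower direction, and voom on the recovered reads called that gene lower too; it is *MYLK*.

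*ACTA2* encodes smooth muscle alpha-actin, the actin of contractile stress fibres in smooth muscle and myofibroblasts. It was at 20.4, 20.3 and 19.9 RPKM in HGC27-FN1 3′-UTR cells and at 9.30, 8.01 and 8.42 RPKM in HGC27-control cells. The groups lay far apart. The HGC27-FN1 3′-UTR libraries varied by 1.10% of their mean (coefficient of variation), less than the 2.75% from counting error, so nothing is read from their closeness. The control libraries varied by 7.7%, against 3.68% from counting error. The mean RPKM was 2.35-fold higher, with a log2 fold change of 1.23 ± 0.06 (SE, n = 3 per group). The reads behind these levels numbered 991, 1474 and 1733 in HGC27-FN1 3′-UTR cells and 618, 735 and 928 in HGC27-control cells. *ACTG2*, the enteric gamma-actin of visceral smooth muscle, drew 2, 2 and 0 reads in HGC27-FN1 3′-UTR cells and 1, 3 and 1 reads in HGC27-control cells. No library was above 3 reads, so no fold is given, and this smooth muscle actin was not detectable above that floor at this depth, between 0.0213 and 0.0481 RPKM.

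**Figure D2:**
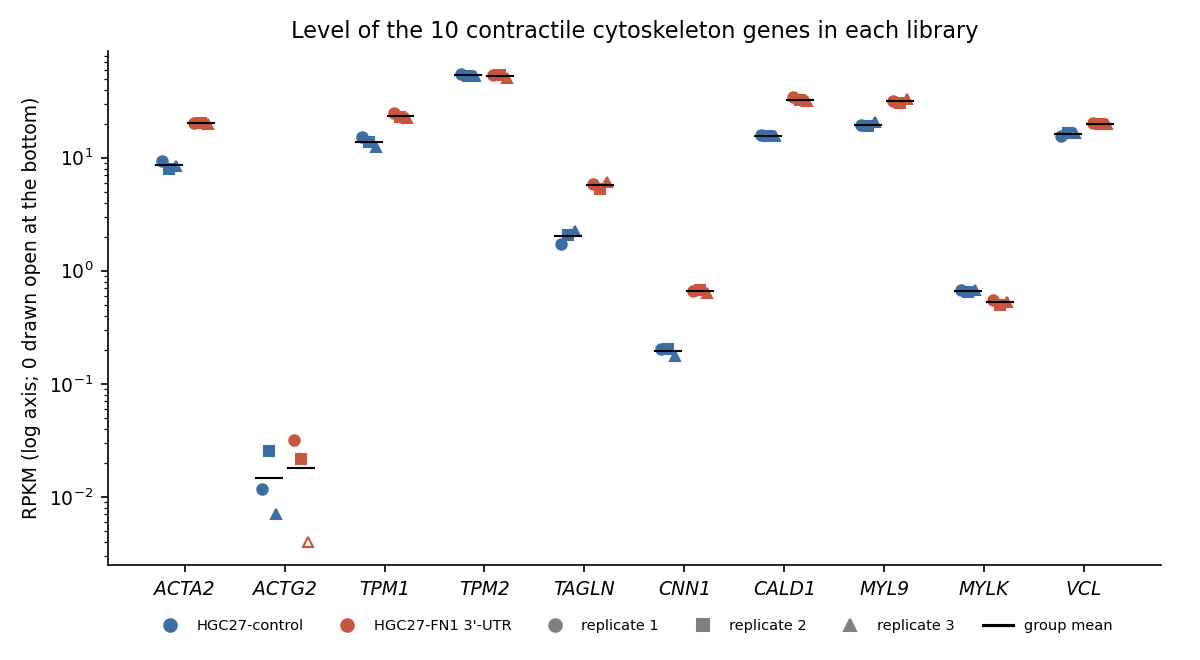
Level of each of the 10 genes in RPKM on a log axis, with 1 point per library, blue for HGC27-control cells and red for HGC27-FN1 3′-UTR cells, marker shapes for replicate numbers and black lines for group means. *ACTA2*, *TAGLN* and *CNN1* show the widest gaps between the groups, the *TPM2* points lie at one height, and *ACTG2* sits at a few reads in both groups.

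Tropomyosins are coiled-coil proteins that lie along the actin filament and set which proteins can bind it. *TPM1* was at 25.1, 23.2 and 22.4 RPKM in HGC27-FN1 3′-UTR cells and at 15.2, 13.7 and 12.4 RPKM in HGC27-control cells. The groups did not overlap, and the control libraries of *TPM1* varied by 9.93% of their mean (coefficient of variation), against 1.42% from counting error. The mean was 1.71-fold higher, with a log2 fold change of 0.77 ± 0.08 (SE, n = 3 per group). *TPM2*, with the highest RPKM of the 10 genes in both groups, was at 53.8, 53.5 and 51.1 RPKM in HGC27-FN1 3′-UTR cells and at 54.9, 52.9 and 52.6 RPKM in HGC27-control cells. These groups overlapped, and the log2 fold change of -0.02 ± 0.03 (SE, n = 3 per group) was smaller than its error and changed sign under median-ratio scaling (0.02).

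*TAGLN* encodes transgelin, or SM22, an actin-bundling protein used as an early marker of the smooth muscle lineage. It was at 5.85, 5.29 and 6.15 RPKM in HGC27-FN1 3′-UTR cells and at 1.72, 2.05 and 2.26 RPKM in HGC27-control cells. Every HGC27-FN1 3′-UTR library was more than 2-fold above every control library. The log2 fold change was 1.48 ± 0.11 (SE, n = 3 per group), the largest of the 9 genes on this scale, and the mean RPKM was 2.87-fold higher.

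*CNN1*, which encodes calponin 1, an inhibitor of the myosin ATPase in smooth muscle, was expressed at a low level. It was at 0.656, 0.681 and 0.641 RPKM in HGC27-FN1 3′-UTR cells, from 31, 48 and 54 reads. In HGC27-control cells it was at 0.202, 0.202 and 0.178 RPKM, from 13, 18 and 19 reads. The groups did not overlap, and the mean RPKM was 3.40-fold higher, the largest ratio of means among the 9 genes. The log2 fold change of 1.37 ± 0.13 (SE, n = 3 per group) depends on the pseudocount of 0.1, and it was 0.47 with a pseudocount of 1 and 1.75 by voom on the recovered reads.

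*CALD1* encodes caldesmon, which blocks myosin from the actin filament until it is released by calcium signalling. It was at 34.4, 32.3 and 31.6 RPKM in HGC27-FN1 3′-UTR cells and at 16.0, 15.7 and 15.5 RPKM in HGC27-control cells. The control libraries were within 1.64% of their mean (coefficient of variation), and the groups were far apart. The log2 fold change was 1.05 ± 0.04 (SE, n = 3 per group), a mean 2.08-fold higher, and it rested on 22367 reads against 13917.

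The values of the myosin genes lay in opposite directions. *MYL9*, the regulatory light chain whose phosphorylation starts contraction in smooth muscle and non-muscle cells, was at 31.8, 30.4 and 33.3 RPKM in HGC27-FN1 3′-UTR cells and at 19.5, 18.9 and 20.6 RPKM in HGC27-control cells. The groups did not overlap, and the log2 fold change was 0.69 ± 0.05 (SE, n = 3 per group). *MYLK*, the calcium- and calmodulin-dependent kinase that phosphorylates this light chain, was at 0.552, 0.501 and 0.525 RPKM in HGC27-FN1 3′-UTR cells and at 0.675, 0.653 and 0.675 RPKM in HGC27-control cells. Every HGC27-FN1 3′-UTR library was below every control library, with a log2 fold change of -0.30 ± 0.10 (SE, n = 3 per group) that was not past the threshold. It was -0.13 with a pseudocount of 1, and the gene was called lower with no trend in the prior variance and by voom. Its merged exons span 22167 bases, so these low RPKM values came from 200 to 554 reads per library.

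*VCL* encodes vinculin, which links actin filaments to talin and the integrins at adhesion plaques. It was at 20.5, 19.7 and 19.7 RPKM in HGC27-FN1 3′-UTR cells and at 15.6, 16.5 and 16.6 RPKM in HGC27-control cells. The groups did not overlap, and the mean was 1.23-fold higher, the smallest ratio among the 7 genes called higher, with a log2 fold change of 0.30 ± 0.04 (SE, n = 3 per group).

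**Figure D3:**
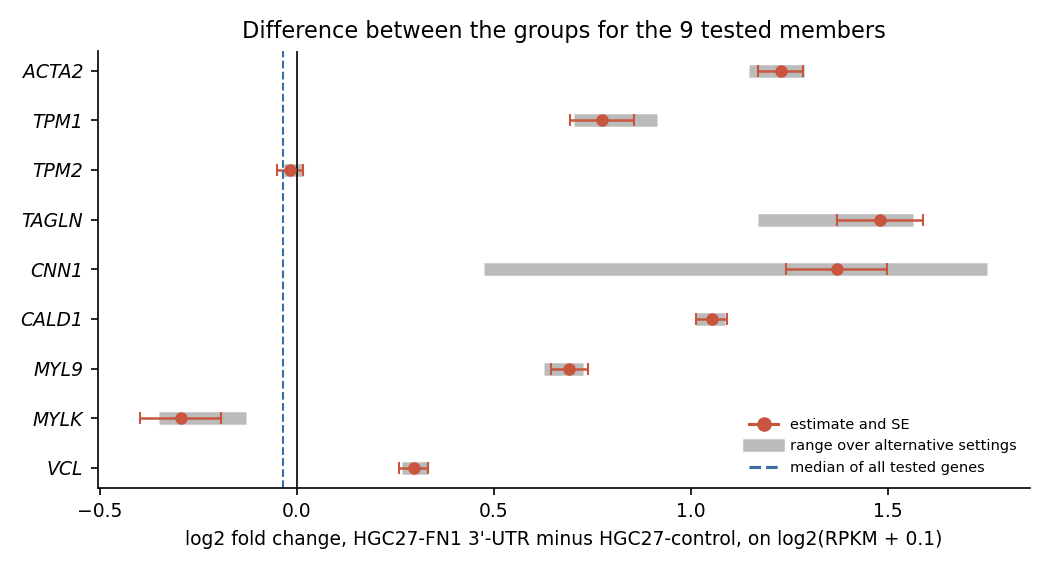
Log2 fold change of 9 genes on log2(RPKM + 0.1), HGC27-FN1 3′-UTR minus HGC27-control, with points and bars for the estimate and its SE (n = 3 per group), grey bars for the range over 16 alternative settings (15 for *CNN1* and *MYLK*) and a dashed line for the median of all tested genes. *TAGLN*, *CNN1*, *ACTA2* and *CALD1* lie above 1, *VCL* at 0.30, *TPM2* at the line of no difference and *MYLK* below it, and the grey bar of *CNN1* is the widest.

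With control replicates 1 and 2 left out together, which leaves a single control library whose spread is taken from the other group, 4 of the 7 genes (*ACTA2*, *TPM1*, *TAGLN* and *CALD1*) were past the threshold. Over all genes, 68 were then called higher. The log2 fold changes without these libraries were 1.25 for *ACTA2*, 0.91 for *TPM1*, 1.31 for *TAGLN*, 1.45 for *CNN1*, 1.07 for *CALD1*, 0.63 for *MYL9* and 0.27 for *VCL*. All 7 kept their direction. Since these libraries were used to choose the genes, nothing is read from these values on the stability of the differences.

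By RPKM, a level per length, the order in HGC27-control cells was *TPM2*, *MYL9*, *VCL*, *CALD1*, *TPM1*, *ACTA2*, *TAGLN*, *MYLK*, *CNN1* and *ACTG2*. Among neighbours in that order, the ranges over libraries met only for *VCL* and *CALD1*. In HGC27-FN1 3′-UTR cells *CALD1* stood second, with a range that met that of *MYL9*, and *ACTA2* stood level with *VCL*. *CNN1* stood above *MYLK* in HGC27-FN1 3′-UTR cells and below it in HGC27-control cells. RPKM divides by the merged exons of all isoforms, 12492 bases in *TPM1* and 2821 bases in *MYL9*, so the order depends on that length.

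Within their families, most of these muscle-type genes were minor by RPKM, a level per length. *ACTA2* made up between 1.16% and 1.47% of the summed actin RPKM in HGC27-control cells and between 2.11% and 2.38% in HGC27-FN1 3′-UTR cells. The cytoplasmic actins *ACTB* and *ACTG1* held nearly all the rest, and the summed actin RPKM was between 634 and 727 in HGC27-control cells and between 852 and 964 in HGC27-FN1 3′-UTR cells. *TAGLN* was between 1.91% and 2.24% of the transgelins in HGC27-control cells and between 4.99% and 5.87% in HGC27-FN1 3′-UTR cells, the rest being almost wholly *TAGLN2*. *CNN1* was below 1% of the calponins in every library, with a mean of 0.339% in HGC27-control cells and 0.852% in HGC27-FN1 3′-UTR cells.

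The tropomyosin shares differed between the groups while the *TPM2* level itself overlapped. *TPM1* had a mean share of 3.83% of the summed tropomyosin RPKM in HGC27-control cells and 5.53% in HGC27-FN1 3′-UTR cells. *TPM4* had 34.5% and 40.8%, *TPM3* had 46.8% and 41.2%, and *TPM2* had 14.9% and 12.4%, in the same order, with no overlap between the groups for any of them. *MYL9* had a mean share of 11.2% of the regulatory light chains in HGC27-control cells and 13.4% in HGC27-FN1 3′-UTR cells, and *MYL12B* was the main one in both groups. *MYLK* had 69.1% and 60.5% of the summed RPKM of the light chain kinases, a sum of 1.01 RPKM in its highest library. The size of a share depends on merged exon length, 12492 bases in *TPM1* and 4047 bases in *TPM2*. In HGC27-control cells *TPM1* drew 15238 reads and *TPM2* 19454. These shares are a description and were not tested.

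**Figure D4:**
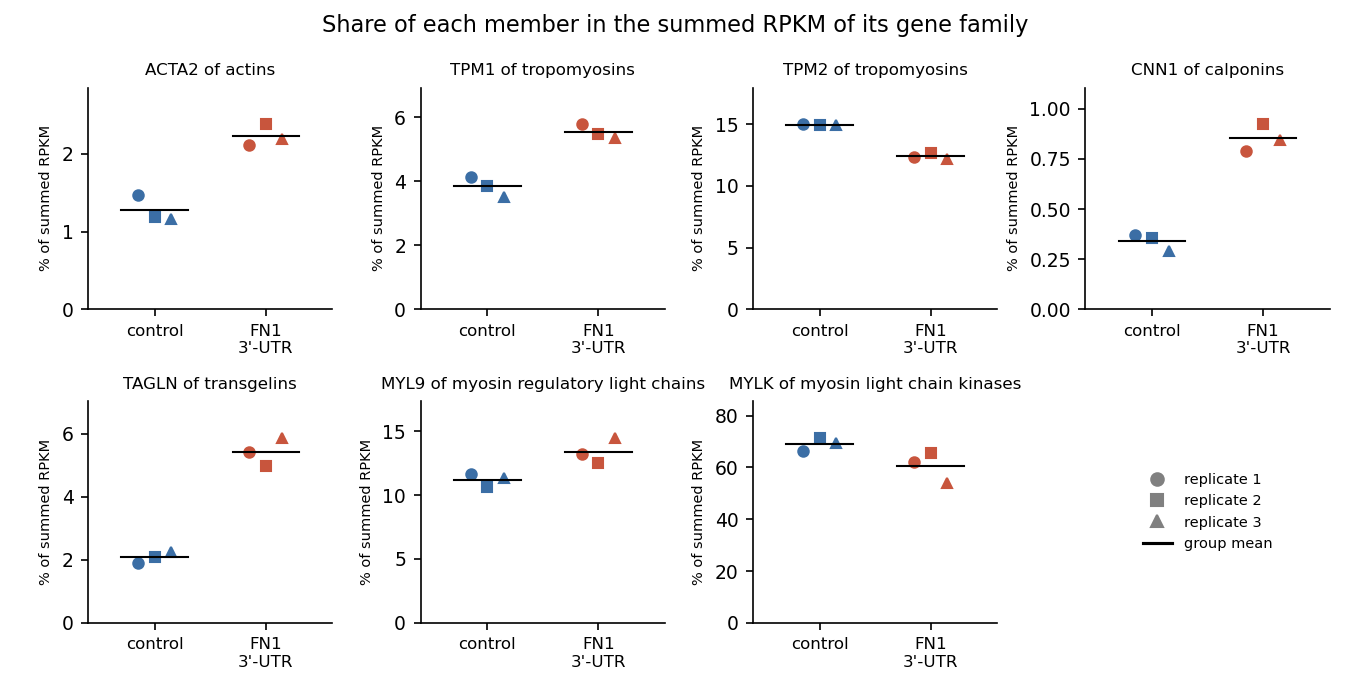
Share of 7 genes in the summed RPKM of their gene family, in percent on axes that start at 0, with 1 point per library by replicate number and a black line for the group mean. *ACTA2*, *TPM1*, *CNN1*, *TAGLN* and *MYL9* have larger shares in all 3 HGC27-FN1 3′-UTR libraries than in any control library, and *TPM2* and *MYLK* have smaller ones.

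The same limma fit was read for 96 other genes of the actin and SRF system, in 5 lists drawn up by role with earlier results of these data known. Of these, 85 were tested, 29 were higher (34.1%, beside 5.62% of all tested genes) and 5 were lower (5.88%, beside 7.36% of all tested genes), with a median log2 fold change of 0.09 beside -0.04 over all tested genes. Fewer of them were called in every fit that left out 1 library. Fewer of all genes were called in these fits too, 501 to 927 higher and 470 to 1015 lower, against 1310 and 1715 with all libraries. Such fits have fewer degrees of freedom, and the cause was not tested. Of the genes in the 5 lists, 10 were higher and none lower without control replicate 2. Without FN1 3′-UTR replicates 1, 2 and 3 in turn, 13, 18 and 17 were higher. Without control replicate 1, 18 were higher, without control replicate 3, 26, and the number lower in these 5 fits was between 1 and 3. With control replicates 1 and 2 both left out, 2 were higher and none lower.

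*SRF* and its cofactors showed no called change. Of the 8 genes tested by limma in this list, none was called in either direction, 1 had an unadjusted p under 0.05, and voom called that gene, *MKL2*, lower (adjusted p = 0.0112). *SRF* was at 11.7, 11.2 and 11.5 RPKM in HGC27-FN1 3′-UTR cells and at 10.9, 10.9 and 11.6 RPKM in HGC27-control cells, groups that overlapped (log2 fold change 0.05, limma, adjusted p = 0.50). *MKL1* had a log2 fold change of -0.11 (limma, adjusted p = 0.353) and *MKL2* of -0.19 (limma, adjusted p = 0.121). *MYOCD*, the cofactor specific to cardiac and smooth muscle, drew 1 read in all 6 libraries together. A level of mRNA does not show how much of a cofactor is in the nucleus, which was not measured here.

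Of 15 tested genes for actins and actin turnover, 5 were higher and none lower by limma, beside 5.62% and 7.36% of all tested genes. In this list 1 gene had an unadjusted p under 0.05 in the lower direction, and voom called 1 lower. *ACTB*, the main cytoplasmic actin and itself a known SRF target, rose from between 452 and 516 RPKM to between 588 and 658 RPKM (log2 fold change 0.38, limma, adjusted p = 0.0160). *ACTG1*, the other cytoplasmic actin, rose by a log2 fold change of 0.50 (limma, adjusted p = 0.0128), and *TMSB4X*, which holds actin monomers in reserve, by 0.85 (limma, adjusted p = 7.29e-04). *ACTG1* did not pass without control replicate 2 (adjusted p = 0.0531), nor did *ACTB* without that library (0.0664) or without FN1 3′-UTR replicate 1 (0.0554) or 3 (0.0502). The skeletal actin *ACTA1* was near 0 in both groups, with a log2 fold change of -0.03 (limma, adjusted p = 0.975). The cardiac actin *ACTC1* was at 0.212 and 0.154 RPKM in control replicates 1 and 2 and at most 0.0264 RPKM in the other 4 libraries, and was not tested.

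In the list of actin filament binding proteins, 6 of 14 tested genes were higher and 2 lower, beside 5.62% and 7.36% of all tested genes. *PALLD*, a scaffold protein of stress fibres, rose by a log2 fold change of 0.63 (limma, adjusted p = 8.17e-04). Both relatives of *CNN1* rose, *CNN2* by 0.55 and *CNN3* by 0.30 (limma, adjusted p = 0.0118 and 0.0132), and *TPM4*, a tropomyosin of non-muscle cells, by 0.49 (limma, adjusted p = 4.79e-04). *TPM3* and *TAGLN2*, the most abundant tropomyosin and transgelin, had log2 fold changes of 0.07 and 0.09 (limma, adjusted p = 0.201 and 0.233). *SMTN*, which encodes smoothelin, a marker of contractile smooth muscle, fell from between 4.91 and 5.30 RPKM to between 4.10 and 4.16 RPKM (log2 fold change -0.29, limma, adjusted p = 0.0123). The other gene called lower, *SMTNL2*, named after its values were seen, had a mean of 0.985 RPKM in HGC27-control cells and 0.506 RPKM in HGC27-FN1 3′-UTR cells. *CNN2*, *CNN3* and *SMTN* did not pass without control replicate 2 (adjusted p = 0.0531, 0.0577 and 0.0571).

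For myosin II and its regulation, 7 of 22 tested genes were higher and 2 lower, beside 5.62% and 7.36% of all tested genes. The light chains next to *MYL9* in function, *MYL12A* and *MYL12B*, rose by log2 fold changes of 0.47 and 0.38 (limma, adjusted p = 0.00203 and 0.0108). *RND3*, a GTPase that restrains ROCK1, rose from between 4.94 and 5.40 RPKM to between 8.58 and 9.66 RPKM (log2 fold change 0.82, limma, adjusted p = 0.00126). *ROCK1* itself and *ROCK2*, named after their values were seen, rose by 0.28 and 0.26 (limma, adjusted p = 0.0400 and 0.0203). The heavy chains *MYH10* and *MYH14*, which build non-muscle myosin II filaments, fell by 0.14 and 0.22 on the log2 scale (limma, adjusted p = 0.0251 and 0.0191). The more abundant heavy chain of this kind, *MYH9*, named after its values were seen, did not share this fall. Its mean was 175 RPKM in HGC27-control cells and 172 RPKM in HGC27-FN1 3′-UTR cells (log2 fold change -0.02, limma, adjusted p = 0.662). *MYH10* passed in 1 and *MYH14* in 2 of the 6 fits that left out 1 library, with adjusted p up to 0.0965 and 0.0739, both without control replicate 2, and *MYH10* did not pass with median-ratio scaling (adjusted p = 0.0928). The kinase *MYLK2* had a log2 fold change of 0.06 (limma, adjusted p = 0.900).

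Of 26 tested adhesion plaque genes, 11 were higher and 1 lower, beside 5.62% and 7.36% of all tested genes. *PARVA*, which binds the integrin-linked kinase, rose by a log2 fold change of 0.66, and the LIM domain gene *PDLIM1* by 0.45 (limma, adjusted p = 0.0107 and 0.00882). *TNS3*, a tensin of adhesion sites, rose by 0.39 (limma, adjusted p = 0.0195), and passed in 2 of the 6 fits that left out 1 library, with an adjusted p up to 0.0761 without control replicate 2. *FLNC*, the muscle-type filamin, fell by 0.25 on the log2 scale (limma, adjusted p = 0.0424) and did not pass in any fit that left out 1 library (adjusted p up to 0.117 without FN1 3′-UTR replicate 2) or with median-ratio scaling (0.0524). The only other gene of the 5 lists past a log2 fold change of 1 was *FHL1*, named after its values were seen, with a mean of 0.128 RPKM in HGC27-control cells and 0.401 RPKM in HGC27-FN1 3′-UTR cells.

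**Figure D5:**
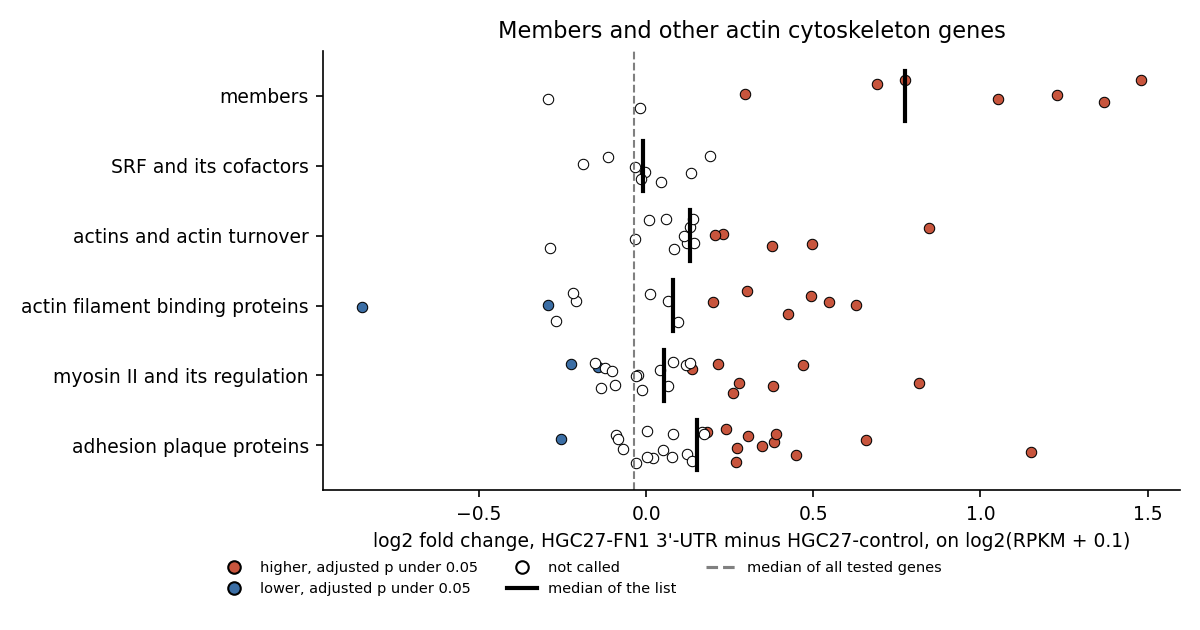
Log2 fold change on log2(RPKM + 0.1), HGC27-FN1 3′-UTR minus HGC27-control, of the 9 members and of the tested genes of 5 other lists, with 1 point per gene, red for higher and blue for lower at an adjusted p under 0.05 in limma, black bars for medians and a dashed line for the median of all tested genes. No gene of the list of *SRF* and its cofactors is coloured, and the medians of the 5 lists lie between -0.01 and 0.15.

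Several members share exon bases with a gene on the opposite strand. *ACTA2-AS1*, an antisense RNA, shares 516 bases, 17.3% of the *ACTA2* exons, and was at 4.32, 4.39 and 4.25 RPKM in HGC27-FN1 3′-UTR cells and at 1.97, 1.46 and 1.92 RPKM in HGC27-control cells. It rose by a log2 fold change of 1.24 (limma, adjusted p = 0.00265), beside 1.23 for *ACTA2*. *FAS*, the death receptor, shares 380 bases with *ACTA2* and rose by 0.48 (limma, adjusted p = 0.00647). The genes listed as RP11-244F12.3 and RP11-244F12.2 share 2143 and 691 bases with *TPM1* and rose by 1.50 and 1.15 (limma, adjusted p = 0.0174 and 0.0229), the former from 4 reads to 51 reads over 3 libraries.

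The partners of other members were not called. *PCSK7*, which shares 446 bases with *TAGLN*, had a log2 fold change of 0.22, *AP3M1*, which shares 1109 bases with *VCL*, of 0.05, and *MYLK-AS1*, which shares 133 bases with *MYLK*, of -0.07 (limma, adjusted p = 0.0841, 0.469 and 0.633). The library kit kept strand, but the strand setting of the counting is not given in the sources used here, so for the shared bases the reads of a member and its partner cannot be told apart.

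Markers of other cell types were read beside these results, since fewer cells of a type and less RNA per cell cannot be told apart in bulk RNA. Of 8 smooth muscle markers in the tables, 5 were tested, and limma called none higher and 1, *SMTN*, lower. None was higher at an unadjusted p under 0.05 or by voom, while 2 were lower at that level and 2 by voom. The genes lower at that level were *SMTN* and *SYNPO2*. The mean of *SYNPO2* was 0.411 RPKM in HGC27-control cells and 0.230 RPKM in HGC27-FN1 3′-UTR cells, without overlap between the groups. This difference, -0.64 on the log2 scale, was not called (limma, adjusted p = 0.0572). The summed smooth muscle marker RPKM was between 6.85 and 7.03 in HGC27-control cells and between 5.30 and 5.63 in HGC27-FN1 3′-UTR cells. Most of that sum was *SMTN*, with a mean of 5.10 RPKM in HGC27-control cells and 4.14 RPKM in HGC27-FN1 3′-UTR cells. *KCNMB1* was at 0, and *MYOCD* and *CASQ2* were below 0.1 RPKM in every library. *MYH11*, the smooth muscle myosin heavy chain, was between 0.244 and 0.345 RPKM in all libraries.

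Most epithelial markers moved with the members. Of 8 tested, 6 were higher (*EPCAM*, *CDH1*, *KRT8*, *KRT18*, *KRT19* and *KRT7*), beside 5.62% of all tested genes. *ESRP1* was higher without overlap but not called (limma, adjusted p = 0.0833). *CLDN4* overlapped, with means of 0.316 RPKM in HGC27-control cells and 0.265 RPKM in HGC27-FN1 3′-UTR cells. The summed RPKM of the 8 was between 3.04 and 3.40 in HGC27-control cells and between 18.8 and 27.8 in HGC27-FN1 3′-UTR cells. Most of it was *KRT8*, with means of 2.15 and 12.2 RPKM in the same order. Of 9 fibroblast and pericyte markers, 3 were higher (*LUM*, *COL3A1* and *THY1*), beside 5.62% of all tested genes. The summed RPKM of the 9 was between 95.6 and 106 in HGC27-control cells and between 135 and 138 in HGC27-FN1 3′-UTR cells. Most of it was *COL3A1*, with means of 82.1 and 111 RPKM in the same order. Of those not called, *DCN* had no overlap between the groups and was higher, and *PDGFRA* and *CSPG4* had none and were lower. *FAP* and *PDGFRB* were below 0.3 RPKM in every library. Of 5 mesenchymal markers, 3 were higher (*TWIST1*, *SPARC* and *S100A4*), beside 5.62% of all tested genes. The summed RPKM of the 5 was between 387 and 440 in HGC27-control cells and between 446 and 467 in HGC27-FN1 3′-UTR cells. Most of it was *VIM*, with means of 303 and 304 RPKM in the same order. The groups overlapped for *VIM* and for *ZEB1*. The part of these marker differences in the values of the contractile genes was not tested. The endothelial marker *PECAM1* was at 0 in all libraries. Of the leukocyte markers, *PTPRC* did not exceed 0.0164 RPKM. The other one in the tables, *CD68*, had means of 2.20 RPKM in HGC27-control cells and 1.97 RPKM in HGC27-FN1 3′-UTR cells. It was not called (limma, adjusted p = 0.318).

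Over the 6 libraries, 5 genes had profiles most like the mean of the 9 members, by the root mean square difference of centred log2(RPKM + 0.1) among 14645 genes with a mean of at least 1 RPKM. They were *CRIM1* (0.0304), *PCDH7* (0.0362), the gene listed as AC007743.1 (0.0370), *CCDC85A* (0.0415) and *ARID5B* (0.0431). *CRIM1*, a transmembrane protein with cysteine-rich repeats, was at 9.90, 9.75 and 9.58 RPKM in HGC27-FN1 3′-UTR cells and at 5.64, 5.60 and 5.60 RPKM in HGC27-control cells. AC007743.1 and *CCDC85A* overlap on chromosome 2 on opposite strands. With 6 libraries in 2 groups, likeness mainly reflects a similar difference between the groups.

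The libraries of a group agreed closely for the members. The coefficient of variation of RPKM ran from 1.10% (*ACTA2*, HGC27-FN1 3′-UTR cells) to 13.7% (*TAGLN*, HGC27-control cells) over the 9 genes. For *CNN1*, with 133 reads in all HGC27-FN1 3′-UTR libraries and 50 in the control libraries, the 3.07% and 7.23% observed were below the 15.4% and 24.8% that counting alone would give. The 1.10% of *ACTA2* was below its counting error of 2.75% too. *MYLK* was below it in both groups, at 4.85% against 6.23% in HGC27-FN1 3′-UTR cells and 1.89% against 4.8% in HGC27-control cells. The deposited span matched GENCODE release 29 at both ends for 9 of the 10 members, the exception being *TPM2*.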

How the data were processed

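RNA-seq was analysed for 3 HGC27-FN1 3′-UTR and 3 HGC27-control libraries, grouped by the sample labels. Libraries were made from mRNA with a stranded kit, and the authors deposited RPKM per gene in 1 table per library. The submitters' processing notes name Trimmomatic 0.36, STAR 2.5.3a, featureCounts from Subread 1.5.1 and the build GRCh38, while strand setting and handling of duplicates are not given in the sources used here. RPKM times merged exon length gave whole reads (tolerance 0.05) for 100% of values, 16357085 to 37037532 reads per library. Counting error covers reads, which are not independent molecules.

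The transform was log2(RPKM + 0.1), and a gene was tested if at least 3 libraries reached an RPKM of 0.1. The model, in limma 3.58.1 (R 4.3.3), held only the group, with a trend in the prior variance. Tests were two-sided with Benjamini-Hochberg adjustment over 23299 genes. Fold changes on this scale understate those of low genes. Alternatives were other pseudocounts, filters and scaling, voom on recovered reads, a replicate block and each library left out. Leaving out control replicates 1 and 2 together and a minimum mean of 10 reads were added after seeing the data. Promoter sequences came from RefSeq (GRCh38.p14).

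The members and lists were chosen with earlier results of these data known. Other genes named were *FN1*, *SRF*, *MKL1*, *MKL2*, genes overlapping a member, relatives of members, the 3 largest and 3 smallest changes per list among called genes with a mean of at least 1 RPKM in a group, and the 5 profiles most like the members.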

Additional observations from a re-analysis of the deposited data

How the results depend on the processing

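The number of members called higher, which were chosen on these libraries so that it is no measure of stability, was 7 under 14 of the 16 alternatives, 6 with a minimum mean RPKM of 1 (*CNN1* was then not tested) and 4 with control replicates 1 and 2 left out. *MYLK* was called lower by voom and with no trend in the prior variance. The log2 fold change of *TPM2*, between -0.033 and 0.0049 with 1 library left out, changed sign under median-ratio scaling (0.016), without FN1 3′-UTR replicate 3 (0.0049), without control replicate 1 (2.7e-05) and without control replicates 1 and 2 (0.0039), and the other 8 members kept their sign. Over all genes, 2042 were called higher and 3066 lower by voom, 501 to 927 and 470 to 1015 with 1 library left out, and 68 and 21 with control replicates 1 and 2 left out. Of the other pathway genes, 19 were called higher and 2 lower with no trend, 10 to 26 and 0 to 3 with 1 library left out, 2 and 0 without control replicates 1 and 2, and 3 and 8 were lower under median-ratio scaling and by voom. With 1 substitution allowed in the core, 4 promoter windows held a CArG box. The fits with fewer libraries have fewer degrees of freedom, and for the rest the cause was not tested.

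Same-numbered libraries of the 2 groups had correlated deviations of 0.0024, 0.021 and 0.010, so the numbers were not taken to pair them. In the fit with a replicate block, 564 genes were called higher and 598 lower, 7 members higher, and 11 other pathway genes higher and 1 lower. Depth limits *ACTG2* and *CNN1*.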
